A study of Mus musculus with 8 samples.

Results

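The complement system is a cascade of plasma and tissue proteins that marks particles for uptake by phagocytes and can end in a pore in a membrane. In the classical pathway C1q binds its target and carries 2 serine proteases, C1r and C1s, which cleave C4 and C2 so that C3 can be cut. The alternative pathway amplifies C3 cleavage through factor B and factor D, and the terminal proteins, C7 among them, follow once C5 has been cut. Adipose tissue is a known source of these proteins, and factor D was named adipsin for its abundance in adipocytes. The 9 genes described here are the C1q chains C1qa, C1qb and C1qc, the C1 proteases C1ra and C1s1, the central components C3 and C4b, the terminal component C7, and Cfd, which encodes factor D. They were chosen by symbol among the 32285 genes of the count tables, with earlier results of these data known, and each symbol had 1 row. Another 43 genes of the pathway, listed by role, were counted beside them.

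The cells were the stromal vascular fraction of inguinal white adipose tissue, that is, what is left of digested fat once floating adipocytes are gone. They came from C57BL/6 mice with food at all times (Ad-Lib, libraries 1, 3, 5 and 7) or from C57BL/6 mice given 2 meals a night (TAN, libraries 2, 4, 6 and 8), n = 4 libraries a group. The labels give the strain as C57BL/6 and the study as C57BL/6J, and no other treatment or allele is named for either group. By the labels the mice were 8 weeks old. The study describes the mice of this experiment as males 7 months old, kept on the diets for 5 months. These ages conflict, so the age is uncertain. TAN mice were killed after a fixed time from their first nightly meal. Whether each library was 1 animal is not given in its label, though the study counts 4 mice a group. The p-values measure the spread between these libraries. Of 44427 barcodes, 36370 cells were kept, 3717 to 5654 a library, from libraries with 25320800 to 37140950 unique molecular identifiers (UMIs). The median mitochondrial share over all barcodes was 1.79 to 2.54% in Ad-Lib and 2.80 to 4.24% in TAN libraries, without overlap, and the part of this difference in the results below was not tested. Any 2 libraries shared 5 to 16 barcodes.

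Cells were assigned by marker genes, none of them a complement gene, to 6 gates that held 18232 cells. The progenitor gates were Dpp4/Pi16 cells (3532 cells, an interstitial type of adipocyte progenitor), Icam1/Col15a1 cells (1801 cells, a type held to be nearer to preadipocytes) and F3/Gdf10 cells (1473 cells). The others were macrophages (3650 cells), endothelial cells (7021 cells) and adipocyte-rich droplets (755). Each gate carried its own markers. The level of Pi16 was 2186 to 2892 counts per 1000000 UMIs of the gate (CPM) in the Dpp4/Pi16 gate and at most 29.4 CPM in the other progenitor gates. The F3/Gdf10 gate did not stand apart as clearly. The 6 Icam1/Col15a1 markers, on which it set no limit, summed to 3805 to 6436 CPM there. They summed to 5040.1 to 6579.6 CPM in the Icam1/Col15a1 gate itself. The adipocyte-rich gate was shallow, with 47 to 143 droplets a library and a median of 994 to 1350 UMIs, and mature adipocytes are removed or broken by this preparation. B cells (2451) and T cells (3458), which should hold few of these transcripts, were gated to give the level of free RNA, although the B cell sums of Ad-Lib 1, 7 and 5 held only 14, 21 and 72 cells. Levels are UMIs summed over the cells of a gate in a library. They are counted at the 3′ end and so carry no length term, but the capture of different genes can differ. A change in a gate's sum is a change per UMI of that gate and not in the number of its cells.

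The 9 genes fell into 3 sets by the cells that held their UMIs. Macrophages held 83.6 to 84.3% of all UMIs of the C1q genes. The 3 progenitor gates held 66.7% of the UMIs of C1ra, 63.7% of C1s1, 72.1% of C3 and 64.1% of C7. The UMIs of C4b were divided between progenitors (44.96%) and macrophages (25.6%). Cfd had 24.1% of its UMIs in the adipocyte-rich gate, the smallest of the 6 gates, and 24.4% in the endothelial gate, the largest.

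**Figure D1:**
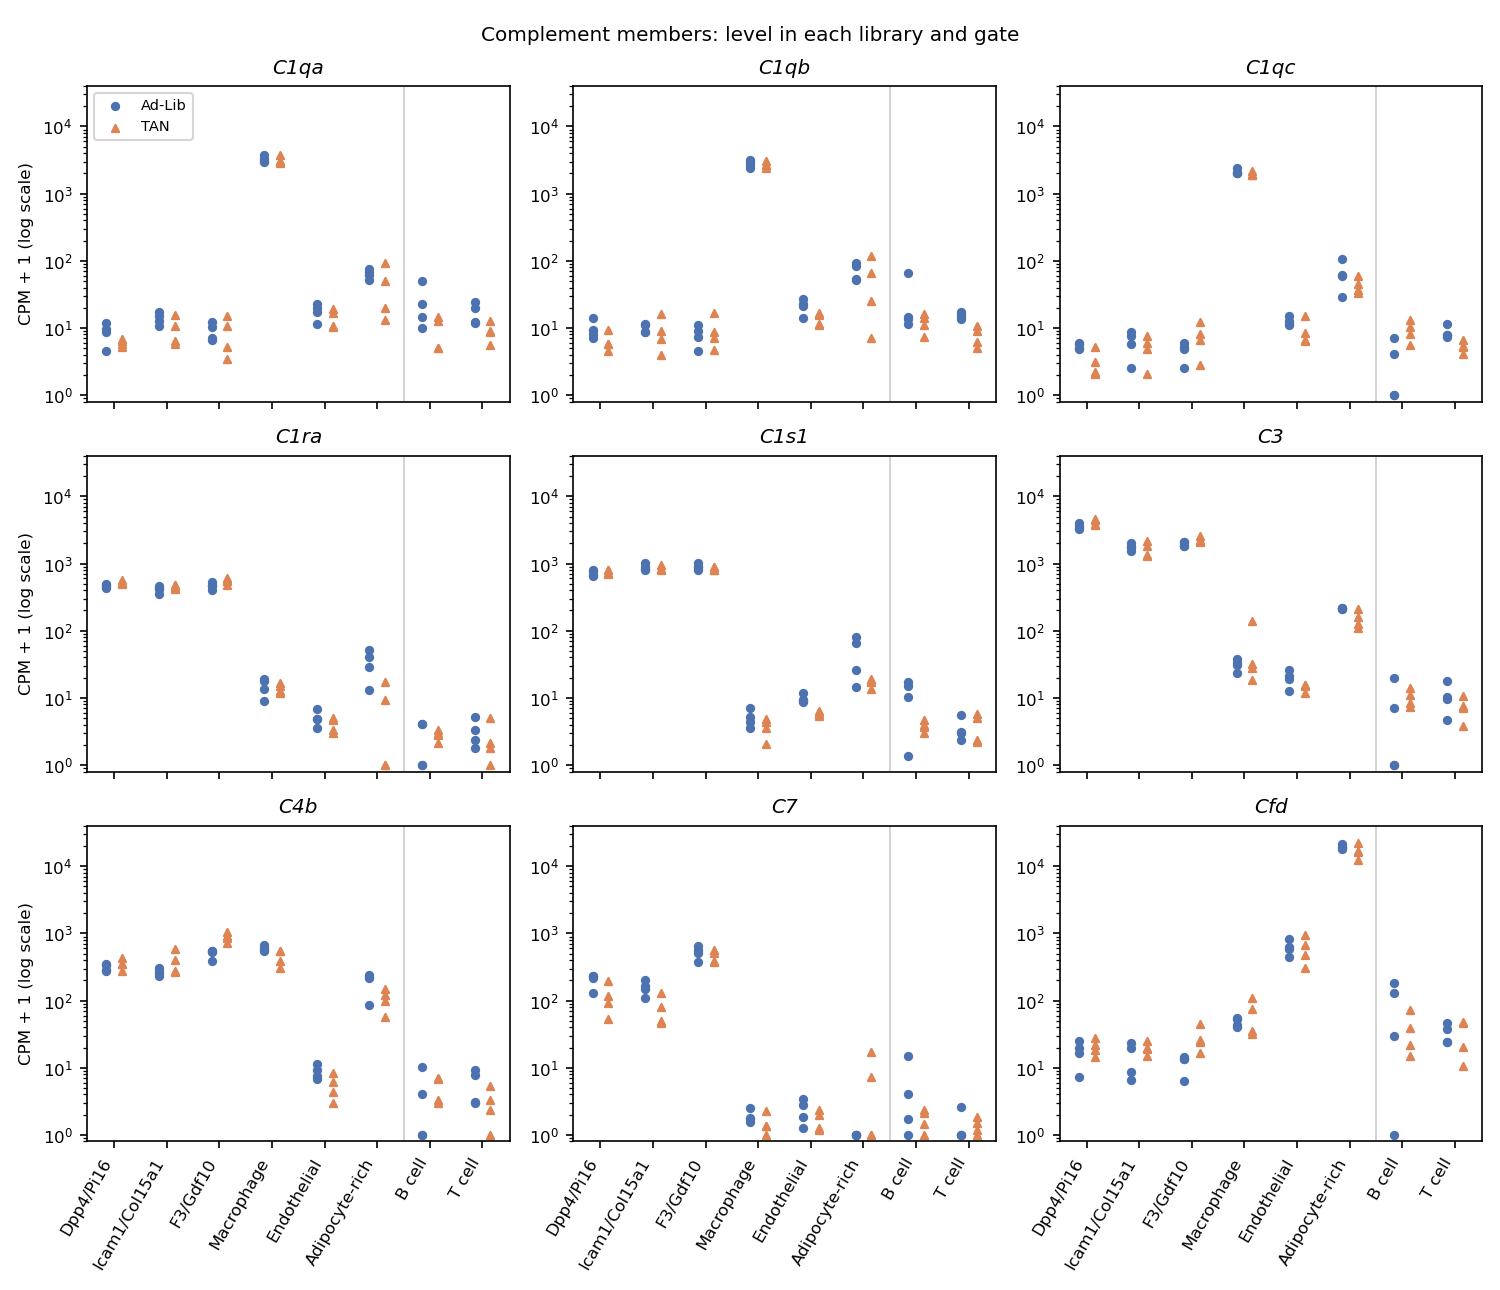
Level of each of the 9 genes in the 6 gates and in B and T cells, as CPM + 1 on a log axis, 1 point for each of the 8 libraries, with colours for Ad-Lib and TAN. The C1q genes lie at 1882 to 3707 CPM in macrophages and at most at 116 CPM elsewhere, C3 peaks in the Dpp4/Pi16 gate, and Cfd lies at 12457 CPM or more in the adipocyte-rich gate.

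The sequence just upstream of a gene's start is shown for genes of each kind of source: C1qb for macrophages, C1s1, C3 and C7 for progenitors and Cfd for adipocytes. These are 250 bases before the start given by RefSeq for GRCm38.p6, read 5′ to 3′ on the gene's strand. An entry was found for 7 of the 9 genes. Capitals mark matches, on either strand, to 3 short motifs: a core of PU.1, a factor of myeloid cells (GAGGAAG), a site of the C/EBP family, which acts in adipocytes, liver and myeloid cells (TTGCNNAA), and an interferon-gamma activated site bound by STAT factors (TTCNNNGAA).
C1qb, chr4:136886201-136886450, minus strand: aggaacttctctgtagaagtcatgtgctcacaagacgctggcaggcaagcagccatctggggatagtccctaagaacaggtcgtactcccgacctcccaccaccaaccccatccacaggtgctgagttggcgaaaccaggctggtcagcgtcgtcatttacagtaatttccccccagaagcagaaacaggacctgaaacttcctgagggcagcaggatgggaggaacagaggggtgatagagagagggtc
C1s1, chr6:124542360-124542609, minus strand: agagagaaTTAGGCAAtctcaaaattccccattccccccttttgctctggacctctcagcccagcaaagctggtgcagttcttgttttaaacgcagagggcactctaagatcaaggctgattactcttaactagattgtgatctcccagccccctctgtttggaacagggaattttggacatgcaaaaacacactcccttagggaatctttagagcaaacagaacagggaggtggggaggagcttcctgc
C3, chr17:57228137-57228386, minus strand: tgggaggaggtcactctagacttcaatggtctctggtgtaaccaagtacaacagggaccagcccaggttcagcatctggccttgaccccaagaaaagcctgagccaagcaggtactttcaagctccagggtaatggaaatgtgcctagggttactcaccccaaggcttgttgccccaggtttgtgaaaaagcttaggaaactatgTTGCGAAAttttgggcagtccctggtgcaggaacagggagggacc
C7, chr15:5063774-5064023, minus strand: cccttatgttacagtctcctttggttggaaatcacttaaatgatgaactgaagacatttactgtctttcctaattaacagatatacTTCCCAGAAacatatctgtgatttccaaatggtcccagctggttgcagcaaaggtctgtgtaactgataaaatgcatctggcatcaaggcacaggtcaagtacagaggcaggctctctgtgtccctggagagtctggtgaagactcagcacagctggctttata
Cfd, chr10:79890603-79890852, plus strand: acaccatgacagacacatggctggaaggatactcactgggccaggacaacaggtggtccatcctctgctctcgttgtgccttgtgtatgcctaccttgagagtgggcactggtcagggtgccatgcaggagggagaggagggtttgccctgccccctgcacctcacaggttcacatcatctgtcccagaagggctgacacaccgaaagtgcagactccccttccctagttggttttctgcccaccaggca
C1s1 had a C/EBP match that began 242 bases upstream and C3 another at 45 bases. C7 had an activated-site match at 164 bases, and C1qb and Cfd had no match to the 3 motifs in this window. Of 32851 RefSeq promoters of the same length, 10.6% held the PU.1 core, 9.56% the C/EBP motif and 7.02% the activated site, so that matches of this kind are common. Among the entries not shown, C1qc had a PU.1 core 194 bases upstream and C1ra had no match.

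Macrophages carried the C1q chains at high and even levels, and TAN feeding was not followed by a change that passed the test. C1q is built of A, B and C chains, whose genes lie side by side over 18.7 kb on chromosome 4 of GRCm38: C1qb at 136880129 to 136886187, C1qc at 136889804 to 136893065 and C1qa at 136895917 to 136898803, all on the minus strand. C1qa was at 3077, 3225, 2973 and 3706 CPM in the Ad-Lib macrophages and at 3095, 2807, 3707 and 3016 CPM in the TAN macrophages. C1qb was at 2686, 2924, 2419 and 3132 CPM against 2624, 2673, 3109 and 2366 CPM, in the same order of libraries. C1qc was at 2000, 2026, 2019 and 2385 CPM against 1882, 1917, 2171 and 1932 CPM. The groups overlapped for each of the chains, and the chains kept a fixed order, with 1.05 to 1.27 C1qa UMIs for each C1qb UMI and 1.46 to 1.71 for each C1qc UMI over the 8 libraries. The log2 TAN to Ad-Lib ratios were -0.04 ± 0.09 (SE) for C1qa, -0.05 ± 0.10 for C1qb and -0.09 ± 0.08 for C1qc, with adjusted p of 0.901, 0.889 and 0.695 (edgeR quasi-likelihood test, Benjamini-Hochberg over 9851 genes). The 2-SE interval for C1qa ran from -0.22 to 0.14 on the log2 scale.

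C1q outside macrophages was low, as were other macrophage transcripts. In the progenitor gates C1qa was at 0.08 to 0.50% of its macrophage level, where the summed macrophage markers were at 0.19 to 0.60% of theirs. In endothelial cells the values were 0.31 to 0.72% for C1qa and 0.77 to 1.03% for the markers, and in T cells C1qa was at 0.16 to 0.62%, with up to 1.57% in B cells. In adipocyte-rich droplets the medians were 1.77% for C1qa, 2.05% for C1qb, 2.60% for C1qc and 1.78% for the markers, with library values up to 3.01, 4.89, 5.35 and 2.66%. These UMIs are few, 213 for C1qa in the Dpp4/Pi16 gate over all libraries. The endothelial level of C1qb was 20.2, 13.1, 21.8 and 25.9 CPM under Ad-Lib and 9.91, 10.6, 14.5 and 15.4 CPM under TAN feeding, a log2 ratio of -0.68 ± 0.19 with an adjusted p of 0.0542 (edgeR). It missed the threshold, also in 6 of the 10 alternative settings, DESeq2 among them, and in 6 of 8 fits with a library left out. It was called with 1 more marker asked (edgeR adjusted p = 0.0427), without a filter on low counts (0.0108) and in cells of at least 2000 UMIs (0.0395). It was also called with a term for libraries numbered up to 4 or above (edgeR adjusted p = 0.0194) and without Ad-Lib 3 (0.0155) or TAN 8 (0.0457). The macrophage markers in the same sums were at 69.3 to 101 CPM under Ad-Lib and 71.99 to 92.7 CPM under TAN feeding. In T cells C1qa was at 10.9 to 23.0 CPM under Ad-Lib and 4.52 to 11.9 CPM under TAN feeding, C1qb at 12.5 to 16.1 and 4.03 to 9.69 CPM, C1qc at 6.36 to 10.5 and 3.08 to 5.64 CPM, and the macrophage markers at 24.2 to 117 and 12.96 to 23.8 CPM. These T cell levels were not tested between diets. The part of free RNA in the endothelial value was not tested.

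**Figure D2:**
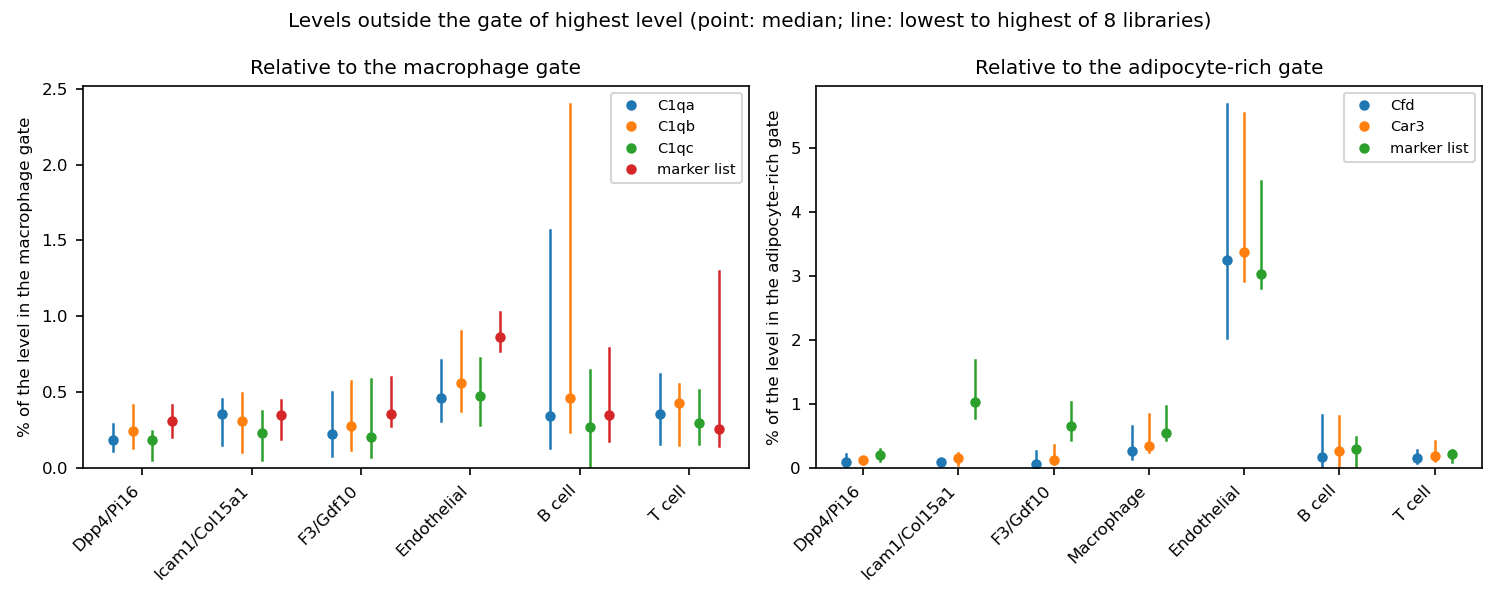
Level in gates other than the source, as a percent of the source gate's level in the same library, with a point for the median and a line from the lowest to the highest of the 8 libraries. The left panel shows C1qa, C1qb, C1qc and the summed macrophage markers relative to macrophages (the adipocyte-rich gate is not drawn), and the right panel shows Cfd, Car3 and the summed adipocyte markers relative to the adipocyte-rich gate; the endothelial C1q medians lie below that of the macrophage markers, and the endothelial Cfd values of 2.03 to 5.68% lie far above those of the other gates drawn.

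The C1 proteases were expressed by all 3 progenitor types at nearly one level. C1r cleaves itself and then C1s within the C1 complex, and the 2 genes lie 6.9 kb apart on chromosome 6, C1ra at 124512405 to 124523443 on the plus strand and C1s1 at 124530345 to 124542359 on the minus strand. In the Dpp4/Pi16 gate C1ra was at 425, 447, 501 and 483 CPM under Ad-Lib and 499, 509, 570.3 and 505 CPM under TAN feeding. Its range over the 8 libraries was 346 to 474 CPM in the Icam1/Col15a1 gate and 405 to 603 CPM in the F3/Gdf10 gate. C1s1 was at 676, 641, 808 and 768 CPM in the Ad-Lib and 710.2, 691, 813 and 810.4 CPM in the TAN libraries of the Dpp4/Pi16 gate. The groups overlapped for both genes, and TAN 6 was the highest library for both. C1s1 ranged over 804 to 1011 CPM and 789 to 1016 CPM in the other 2 progenitor gates. The median number of C1s1 UMIs per C1ra UMI was 1.51 in the Dpp4/Pi16, 2.00 in the Icam1/Col15a1 and 1.70 in the F3/Gdf10 gate.

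The proteases did not pass the test of TAN feeding in any progenitor gate. Their log2 ratios were 0.17 ± 0.07, 0.11 ± 0.10 and 0.17 ± 0.11 for C1ra and 0.06 ± 0.07, -0.07 ± 0.09 and -0.14 ± 0.10 for C1s1, in the order Dpp4/Pi16, Icam1/Col15a1 and F3/Gdf10. Between gates of the same libraries, C1ra was higher in Dpp4/Pi16 than in Icam1/Col15a1 cells by 0.26 ± 0.05 on the log2 scale (adjusted p = 3.09e-05, edgeR with library as a block), which is less than the 1.5-fold asked of a call. C1s1 was lower by 0.15 ± 0.05 in the same pair (edgeR adjusted p = 0.00820). Close relatives share sequence with these genes, since 11.2% of 90-base windows at the 3′ end of C1ra are also in C1rb and 2.68% of those of C1s1 are in C1s2. Both relatives had means of at most 0.468 CPM in every gate.

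Endothelial cells held little C1s1, and it was the sole complement component that passed the test there. The endothelial level was 7.59, 8.26, 10.6 and 8.39 CPM under Ad-Lib and 5.34, 5.14, 4.72 and 4.36 CPM under TAN feeding, from 121 and 73 UMIs. All TAN values lay below all Ad-Lib values, and the log2 ratio was -0.79 ± 0.20 (1.73-fold lower, edgeR adjusted p = 0.042). Of the 8 members tested in the gate 1 was called, where 2.12% of all 10537 genes were called in either direction and 1.13% were called lower. The call was lost when any 1 of the libraries was left out, with adjusted p between 0.0687 and 0.102, and in DESeq2 (adjusted p = 0.142). It was also lost without a filter on low counts (0.0504), at a mitochondrial limit of 20% (0.0624) and in cells of at least 2000 UMIs (0.0576), all adjusted p from edgeR. Progenitor markers moved beside it: their 8 genes summed to 88.1 to 164 CPM under Ad-Lib and 69.4 to 105 CPM in TAN endothelial cells, and Dcn, the decorin gene, was at 32.8 to 59.9 and 28.3 to 36.9 CPM. The sums of other lists differed without overlap in this gate, with the 8 endothelial markers at 8568 to 9825 and 7758 to 8243 CPM, 6 dendritic cell markers at 169 to 206 and 120 to 159 CPM, and the 6 Dpp4/Pi16 markers higher under TAN feeding, at 385 to 472 and 516 to 599 CPM. The part of these cells and of progenitor RNA in the result was not tested. In B cells C1s1 ranged over 0.377 to 16.1 CPM and in T cells over 1.18 to 4.85 CPM. The highest B cell value was a single UMI among the 62129 of Ad-Lib 1. All 8 members tested in endothelial cells had estimates below 0, with a median of -0.50 against -0.002 for all genes, and 5 had an unadjusted p under 0.05, as did 17.4% of all genes.

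C3 was the most abundant of the 9 genes in progenitors and was highest in the Dpp4/Pi16 type. C3 is the protein on which all pathways meet, and its fragment C3a, once trimmed, is also known as acylation stimulating protein. Its gene lies at chr17:57203970-57228136 on the minus strand. In the Dpp4/Pi16 gate C3 was at 3253, 3353, 3962 and 3624 CPM under Ad-Lib and at 3714, 3893, 4612 and 4461 CPM under TAN feeding, which is 0.325 to 0.461% of all UMIs of these cells. In the Icam1/Col15a1 gate it was at 1529, 1745, 2044 and 1775 CPM under Ad-Lib and 1359, 1296, 2151 and 1835 CPM under TAN feeding. In the F3/Gdf10 gate the values were 1822, 2105, 2079 and 1817 CPM and 2146, 2238, 2545 and 2106 CPM. Every library had more C3 in its Dpp4/Pi16 sum than in its other progenitor sums. The difference was 1.26 ± 0.06 on the log2 scale over Icam1/Col15a1 cells (2.39-fold, adjusted p = 3.19e-16) and 0.99 ± 0.06 over F3/Gdf10 cells (1.99-fold, adjusted p = 7.15e-14; edgeR with library as a block, 10833 genes). In Leiden clusters the difference over F3/Gdf10 cells was 0.57, under 1.5-fold, and C3 was not called there. As many as 27.2% and 26.7% of all genes were called between these gates, and 2 and 3 of the 9 members, so that the share of members called was near that of all genes. The other member called between Dpp4/Pi16 and Icam1/Col15a1 cells was C1qa, lower in the first by 0.61 ± 0.19 in log2 units (edgeR adjusted p = 0.00877) from 213 and 177 UMIs, a call that was lost with 1 more marker, in Leiden clusters and without Ad-Lib 3 or TAN 6. C7 was called between these gates without TAN 4 or Ad-Lib 7.

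TAN feeding did not change C3 past the threshold in any gate. In the Dpp4/Pi16 gate the means were 3548 ± 317 CPM under Ad-Lib and 4170.1 ± 434 CPM under TAN feeding (SD, n = 4 each), with a log2 ratio of 0.23 ± 0.07 and an adjusted p of 0.177 (edgeR), and the groups overlapped. In the F3/Gdf10 gate the TAN values lay above the Ad-Lib values by a narrow margin, with a log2 ratio of 0.15 ± 0.11 and an adjusted p of 0.657. The ratio was -0.12 ± 0.12 in Icam1/Col15a1 cells (edgeR adjusted p = 0.727). In adipocyte-rich droplets C3 was at 214, 210.0, 213 and 211 CPM under Ad-Lib and 161, 127, 212 and 107 CPM under TAN feeding, a log2 ratio of -0.56 ± 0.24 with an adjusted p of 0.176. This gate held 172 C3 UMIs in all, and its summed progenitor markers were at 420 to 678 CPM under Ad-Lib and 173 to 463 CPM under TAN feeding. Their part in the C3 level was not tested.

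A single library set the estimate for C3 in macrophages. The level was 22.8, 31.8, 29.3 and 37.1 CPM under Ad-Lib and 137, 17.2, 27 and 30.9 CPM in TAN macrophages, so that TAN 2 stood far above the other 7 libraries. In TAN 2 the 394 UMIs were spread over 135 of 375 macrophages, and 4 cells held 10 or more. The log2 ratio of 0.94 ± 0.45 (edgeR adjusted p = 0.387) became -0.28 without TAN 2. Cd55, which encodes a membrane inhibitor that dissociates C3 convertases, was also high in that library, at 277 CPM against 8.38 to 23.9 CPM in the other macrophage sums. Dpp4/Pi16 markers in the TAN 2 macrophages summed to 74.9 CPM, within the 70.4 to 97.3 CPM of all libraries.

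C4b was higher in TAN than in Ad-Lib F3/Gdf10 progenitors. C4 is cleaved by C1s and forms a convertase with C2, and C4b lies at chr17:34728380-34743882 on the minus strand. In the F3/Gdf10 gate C4b was at 529, 552, 387 and 547 CPM under Ad-Lib and 1044, 842, 904 and 718 CPM under TAN feeding. Each TAN library exceeded every Ad-Lib library, with means of 504 ± 78.7 and 877 ± 135 CPM (SD, n = 4 each). The log2 ratio was 0.75 ± 0.15 (1.68-fold, 2-SE interval 0.45 to 1.04, edgeR adjusted p = 0.0246, and 0.000247 in DESeq2). The DESeq2 adjustment covered 1149 genes and the edgeR adjustment 9632, so the 2 adjusted values are not alike. Of 8 members tested in this gate 1 was called, against 0.571% of 9632 genes in either direction and 0.176% called higher, and 3 of the 9 (C3, C4b and Cfd) had groups that did not overlap, as had 6.16% of the genes tested. The estimate stayed between 0.62 and 0.85 when libraries were left out one by one, but the call was lost without TAN 2 (0.63, adjusted p = 0.138) and without TAN 4 (0.76, adjusted p = 0.0587). It was also lost when the gate asked for 1 more marker (0.69, edgeR adjusted p = 0.125). Cells without marker UMIs of macrophages, endothelial cells, adipocytes, B or T cells lost it too (0.78, edgeR adjusted p = 0.0613). Pericyte and Icam1/Col15a1 markers were still allowed in those cells. Other markers moved in the sums of the full gate. Pericyte and smooth muscle markers, 6 genes, were at 69.99 to 86.5 CPM under Ad-Lib and 88.4 to 110 CPM under TAN feeding, without overlap. The F3/Gdf10 markers averaged 1649 and 1937 CPM and the Icam1/Col15a1 markers 5392 and 4626 CPM, with groups that overlapped. Their part in the result was not tested. A term for the libraries numbered up to 4 against those above, added after the data were seen, left it at 0.75 with an adjusted p of 0.00654 (edgeR).

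In the other gates C4b did not pass the test, and its estimates had both signs. In the Dpp4/Pi16 gate it was at 278, 288, 337 and 347 CPM under Ad-Lib and 353, 278, 429.7 and 350.3 CPM under TAN feeding (log2 ratio 0.17 ± 0.10, edgeR adjusted p = 0.596). In the Icam1/Col15a1 gate the values were 230.2, 260.2, 306 and 271 CPM and 408, 268, 589 and 279 CPM (log2 ratio 0.50 ± 0.17, edgeR adjusted p = 0.154), with TAN 2 and TAN 6 above the rest. That estimate ran from 0.27 to 0.64 with a library left out. It was called without TAN 8 (0.64, edgeR adjusted p = 0.0437) and in Leiden clusters (0.96, edgeR adjusted p = 0.00780). It turned to -0.15 in the 203 Icam1/Col15a1 cells without marker UMIs of the other gated lineages or of F3/Gdf10 cells. Macrophages had 605, 550.3, 559 and 678 CPM under Ad-Lib and 309, 394, 552 and 538 CPM under TAN feeding, where TAN 2 and TAN 4 were the lowest and TAN 6 reached into the Ad-Lib range (log2 ratio -0.43 ± 0.12, edgeR adjusted p = 0.106). In the adipocyte-rich gate C4b was at 214, 84, 238 and 219.8 CPM and 55.8, 121, 147 and 99.1 CPM, from 139 UMIs (log2 ratio -0.94 ± 0.32, edgeR adjusted p = 0.0761). Ad-Lib 3 fell among the TAN libraries there, and without it the difference was called (-1.21). In the same droplets the macrophage markers summed to 143 to 262 CPM under Ad-Lib and 65.3 to 215 CPM under TAN feeding, and their part was not tested. A 3′ window of 90 bases in C4b is found in C4a in 20.2% of positions, and how many reads this left unassigned is not measured here. C4a had 6 to 19 UMIs in each gate where C4b had 4870 to 13709.

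C4b was also the component that, with C7, set F3/Gdf10 cells apart from the other progenitors over both diets. It was lower in Dpp4/Pi16 than in F3/Gdf10 cells by 0.88 ± 0.10 in log2 units (edgeR adjusted p = 1.48e-08) and lower in Icam1/Col15a1 than in F3/Gdf10 cells by 1.05 ± 0.10 (adjusted p = 3.49e-08). Between the Icam1/Col15a1 and F3/Gdf10 gates 3.31% of all genes were called, and 2 of the 9 members, C4b and C7. Dpp4/Pi16 and Icam1/Col15a1 cells did not differ in C4b (0.17 ± 0.10, adjusted p = 0.184) past the threshold, but in Leiden clusters C4b was higher in the first by 1.45 (edgeR adjusted p = 1.69e-14).

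**Figure D3:**
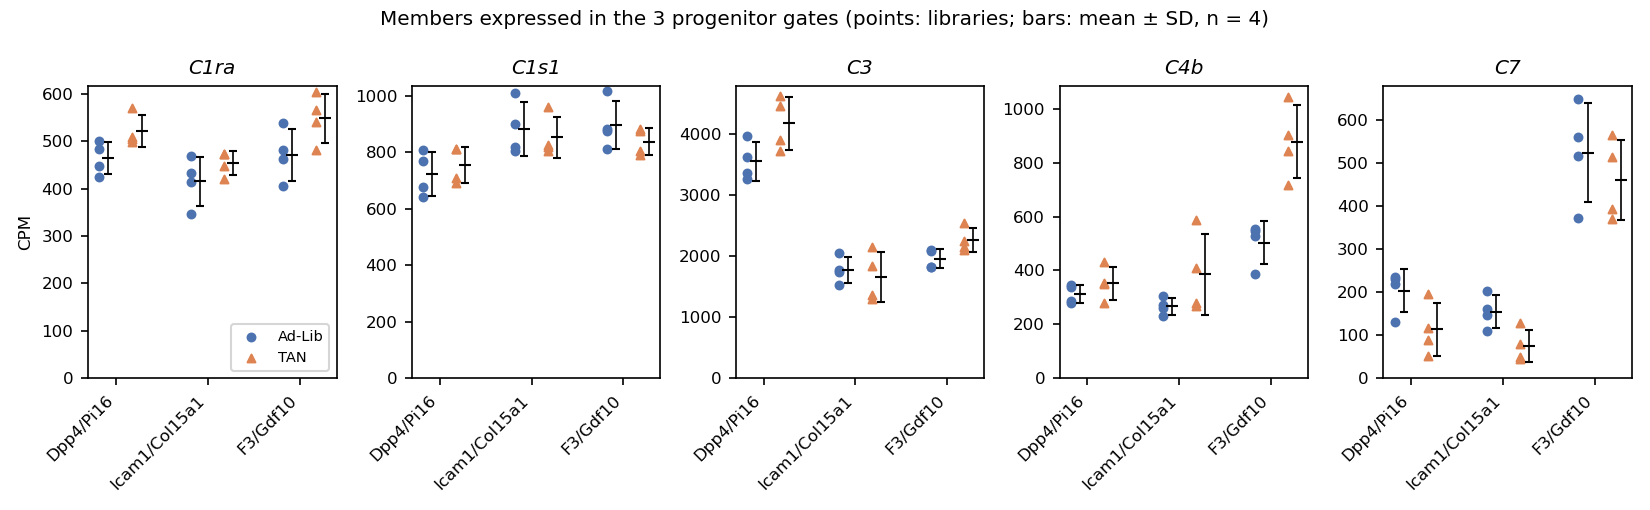
Levels of C1ra, C1s1, C3, C4b and C7 in the 3 progenitor gates as CPM on linear axes that start at 0, 1 point a library with the mean and SD of each group of 4. C3 is highest in the Dpp4/Pi16 gate, C7 in the F3/Gdf10 gate, and the TAN points of C4b in the F3/Gdf10 gate (718 to 1044) lie above its Ad-Lib points (387 to 552).

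C7 was near 0 in every gate but the progenitors, was highest in F3/Gdf10 cells, and was lower after TAN feeding in Icam1/Col15a1 cells. C7 joins the complex of C5b and C6 and lets it anchor to a membrane, and its gene lies at chr15:4988762-5063740 on the minus strand. Macrophages held 18 C7 UMIs over the 8 libraries, endothelial cells 27 and adipocyte-rich droplets 2. In the F3/Gdf10 gate C7 was at 560.3, 517, 373 and 649 CPM under Ad-Lib and 370.3, 513, 565 and 394 CPM under TAN feeding, which overlapped over nearly their whole range. In the Icam1/Col15a1 gate it was at 146, 162, 109 and 202 CPM under Ad-Lib and 49.4, 79.6, 127 and 45 CPM under TAN feeding. Here 3 TAN libraries lay below every Ad-Lib library and TAN 6 lay above Ad-Lib 5. In the Dpp4/Pi16 gate the values were 230.5, 235, 130.4 and 219 CPM and 89.8, 51.6, 196 and 117 CPM, with TAN 6 among the Ad-Lib libraries and Ad-Lib 5 among the TAN libraries.

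The TAN to Ad-Lib ratio of C7 in Icam1/Col15a1 cells was -1.12 ± 0.22 as a log2 value (2.18-fold lower, 2-SE interval -1.57 to -0.68, edgeR adjusted p = 0.00714). It was 1 of 8 members called there, against 1.62% of 9614 genes in either direction and 1.13% called lower. Erythroid markers, 3 genes, also differed without overlap in this gate, at 7.51 to 35.6 CPM under Ad-Lib and 83.5 to 574 CPM under TAN feeding, and their part in the result was not tested. The call held without each library in turn, at -0.93 to -1.41, and with a term for the libraries numbered up to 4 or above (-1.13, adjusted p = 0.00875). In DESeq2, with an adjustment over 5931 genes, the estimate was -1.08 with an adjusted p of 0.0972. In Dpp4/Pi16 cells the ratio was -0.91 ± 0.27 (edgeR adjusted p = 0.161), and without TAN 6 it was -1.25 with an adjusted p of 0.0117. F3/Gdf10 markers were at 92.6 to 146 CPM under Ad-Lib and 47.7 to 114 CPM under TAN feeding in these sums, with overlap. The gate's own 6 markers were at 4290 to 4702.4 and 4702.6 to 5301 CPM, without overlap. Their part in the C7 ratio was not tested. In that gate 0 of the 9 members were called by edgeR or DESeq2 with all libraries, 5 had an unadjusted p under 0.05, as did 10.6% of all 10486 genes, and 0.658% of these genes were called. In F3/Gdf10 cells the ratio was -0.26 ± 0.16 (edgeR adjusted p = 0.609). The test of whether the change differed between gates passed the threshold for no member, also not between Dpp4/Pi16 and Icam1/Col15a1 cells, where 0.0107% of genes were called. For C7, Icam1/Col15a1 minus F3/Gdf10 cells gave -0.94 ± 0.20 with an unadjusted p of 0.0013 and an adjusted p of 0.689 (limma over 9404 genes, 0% of them called and 608 with an unadjusted p under 0.05), and Dpp4/Pi16 minus F3/Gdf10 cells gave -0.78 ± 0.34 (limma adjusted p = 0.567). For C4b the differences were -0.64 ± 0.21 for Dpp4/Pi16 minus F3/Gdf10 cells (limma adjusted p = 0.491) and -0.34 ± 0.26 for Icam1/Col15a1 minus F3/Gdf10 cells (limma adjusted p = 0.870).

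Markers of F3/Gdf10 cells, in which C7 is several times higher, were present in the Icam1/Col15a1 gate at 274 to 320 CPM under Ad-Lib and 192 to 301 CPM under TAN feeding. Of these, F3 itself was at 219.8, 162, 66.5 and 32 CPM under Ad-Lib and 159, 90.9, 37.4 and 62.2 CPM under TAN feeding. Gdf10 was at 94, 97.5, 189 and 216 CPM under Ad-Lib and 73, 73.7, 252 and 182 CPM under TAN feeding. Both genes thus split the libraries by number and not by diet, with less F3 in the libraries numbered above 4 and more Gdf10. The labels name no batch. Some cells, 10 to 49 a library, lacked UMIs of F3/Gdf10 markers and of markers of the other gated lineages. They gave a C7 ratio of -1.52 (edgeR adjusted p = 0.173). Over both diets, C7 was 4.39-fold lower in Icam1/Col15a1 than in F3/Gdf10 cells (log2 -2.13 ± 0.15, edgeR adjusted p = 3.26e-11) and 3.02-fold lower in Dpp4/Pi16 than in F3/Gdf10 cells (-1.59 ± 0.14, adjusted p = 6.70e-11).

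**Figure D4:**
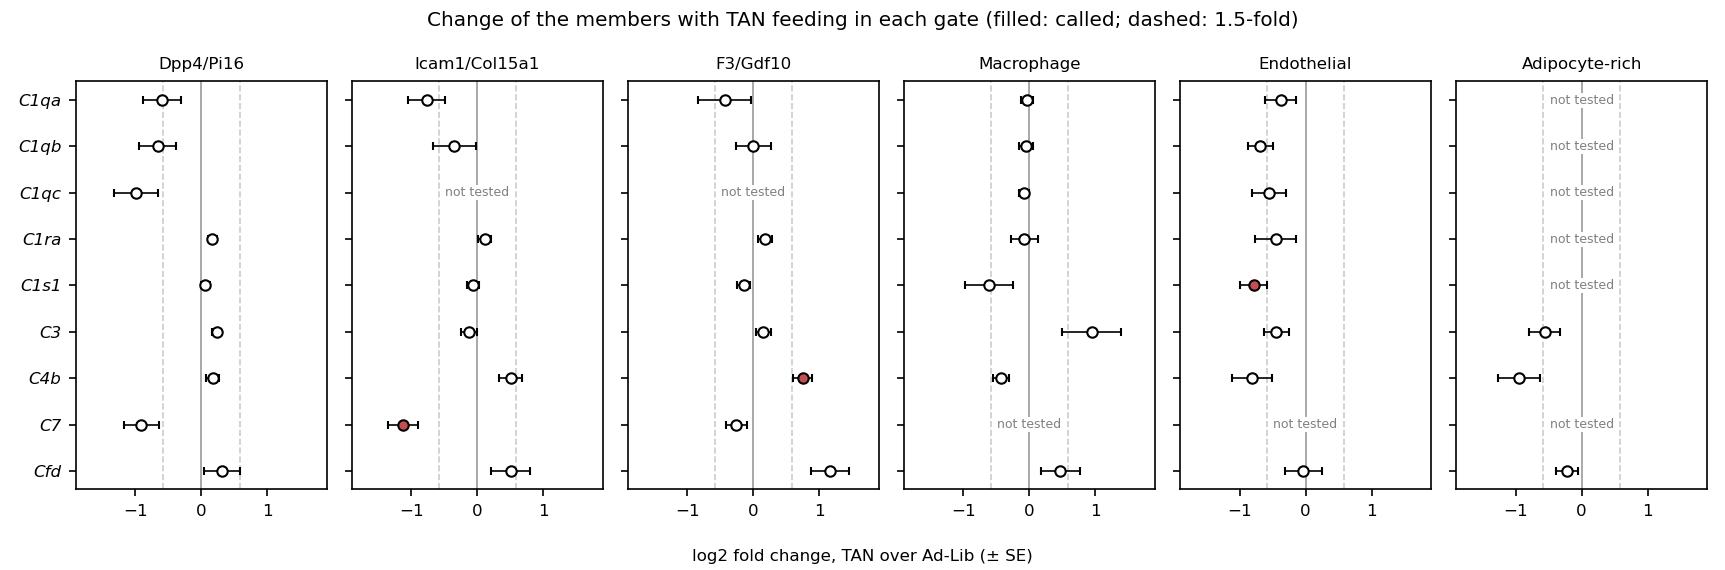
Log2 ratio of TAN to Ad-Lib for each gene and gate from the edgeR fit, with its standard error; filled points were called (adjusted p under 0.05 and at least 1.5-fold) and dashed lines mark 1.5-fold. The 3 filled points among the members are C4b in the F3/Gdf10 gate (0.75), C7 in the Icam1/Col15a1 gate (-1.12) and C1s1 in the endothelial gate (-0.79).

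Cfd was the most abundant of the 9 genes in any gate and belonged to the adipocyte-rich droplets. Factor D is the protease that cleaves factor B once bound to C3b, and its gene lies at chr10:79890853-79892655 on the plus strand. Cfd was at 18347, 19263, 18720.0 and 21631 CPM in the Ad-Lib and 17144, 16424, 22558 and 12457 CPM in the TAN libraries of this gate, or 1.25 to 2.26% of its UMIs. TAN 8 was the lowest library and TAN 6 the highest, so that the groups overlapped throughout. The log2 ratio was -0.22 ± 0.16 with an adjusted p of 0.487 (edgeR), and 0 of the 3 members tested in this gate were called by edgeR or DESeq2 (2 had an unadjusted p under 0.05, as did 20.8% of all genes), where 7.34% of its 1513 genes were called. The gate's 7 adipocyte markers summed to 6720 to 7315 CPM under Ad-Lib and 4932 to 6047 CPM under TAN feeding, without overlap. The 3 erythroid markers were at 22610, 31384, 60627 and 29267 CPM in Ad-Lib 1, Ad-Lib 7, TAN 2 and TAN 8 and at 36.3 to 122 CPM in the other libraries. The part of these differences in the values of Cfd, C3 and C4b in this gate was not tested. Adipoq, the adiponectin gene and a marker of the gate, was at 1208 to 1868 CPM in the same droplets.

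Endothelial cells were the gate with the next highest Cfd. The level was 628, 820.4, 577 and 440.1 CPM under Ad-Lib and 661, 932, 474 and 303 CPM under TAN feeding (log2 ratio -0.03 ± 0.28, edgeR adjusted p = 0.97). Relative to the adipocyte-rich gate of the same library this was 2.03 to 5.68%, with a median of 3.25%. Car3, a carbonic anhydrase gene of adipocytes, had a median of 3.37% and the summed adipocyte markers one of 3.02%. Cfd thus stood in endothelial cells near the proportion of these adipocyte transcripts, and the part of free RNA was not tested. The number of Cfd UMIs per Car3 UMI had a median of 0.852 in adipocyte-rich droplets and 0.779 in endothelial cells, with library values of 0.636 to 1.04 and 0.519 to 0.927. Macrophages (0.636), T cells (0.714), Dpp4/Pi16 (0.686), Icam1/Col15a1 (0.507) and F3/Gdf10 cells (0.539) had lower medians of this ratio.

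In the remaining gates Cfd was low. B cells had 0 to 179 CPM and T cells 9.69 to 46.6 CPM, and these did not differ between diets past the threshold (exact permutation test, two-sided, p = 0.371 and 0.8, n = 4 each, where 0.0286 is the smallest p the design allows). Macrophages ranged over 30.8 to 108 CPM, Dpp4/Pi16 cells over 6.19 to 27.1 CPM and Icam1/Col15a1 cells over 5.65 to 24.2 CPM. In F3/Gdf10 cells Cfd was at 13.4, 12.7, 12.5 and 5.34 CPM under Ad-Lib and 25.1, 43.5, 15.7 and 23.2 CPM under TAN feeding, from 117 and 118 UMIs, and the groups did not overlap. The log2 ratio of 1.17 ± 0.29 did not pass (edgeR adjusted p = 0.0745), it passed with a term for the libraries numbered up to 4 or above (1.15, adjusted p = 0.0358), and it turned to -0.33 in Leiden clusters. The upper end of the B cell range came from the 21 cells of Ad-Lib 7, and macrophages reached above the T cell range while the progenitor sums did not. Car3 in F3/Gdf10 cells averaged 0.10% of its adipocyte-rich level in Ad-Lib and 0.23% in TAN libraries.

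Of the 43 other genes of the pathway, 20 reached a mean of 10 CPM in at least 1 gate. They were 3 of 13 classical and lectin genes, 2 of 2 alternative genes, 1 of 6 terminal genes, 6 of 12 inhibitors and 8 of 10 receptors. Macrophages were the highest gate for 9 of the 20, F3/Gdf10 cells for 4, endothelial cells for 3 and Dpp4/Pi16 cells and adipocyte-rich droplets for 2 each. Progenitors thus carried C1ra, C1s1, C2, C3, C4b, Cfb and C7, while C8a and C8b, which encode later pore proteins, had 0 UMIs in all 6 gates and Hc, which encodes C5, had a mean of at most 3.44 CPM. C6 was found in macrophages, at a mean of 66.7 CPM.

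Among the inhibitors, Serping1 led in every progenitor gate. Its product, the C1 inhibitor, blocks C1r and C1s, and it had means of 2096 CPM in Dpp4/Pi16, 1084 CPM in Icam1/Col15a1 and 1725 CPM in F3/Gdf10 cells, above the means of C1ra and C1s1 in the same sums. Cd55 was at 653 CPM in Dpp4/Pi16 cells. The gene next in level in Icam1/Col15a1 cells was Colec12, a scavenger receptor with a collectin domain (134 CPM), and in F3/Gdf10 cells Cfb (230 CPM) and C2 (225 CPM). Macrophages held Cfp, the gene of properdin, which stabilises the alternative convertase (517 CPM), Fcna, a ficolin of the lectin pathway (402 CPM), and C5ar1, a receptor for C5a (298 CPM). Endothelial cells held Cd93 (586 CPM), Cr1l (177 CPM) and Cd59a, an inhibitor of the membrane pore (71.0 CPM), and adipocyte-rich droplets C1qbp (121 CPM) and Cd59a (112 CPM).

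Of these 43 genes, 10 were tested in Dpp4/Pi16, 8 in Icam1/Col15a1, 10 in F3/Gdf10, 19 in macrophage, 12 in endothelial and 2 in adipocyte-rich sums, and 1 was called, Cfb in macrophages. Factor B supplies the protease of the alternative convertase. It was at 119, 105, 103 and 143 CPM under Ad-Lib and 55, 62.4, 102 and 88.9 CPM in TAN macrophages, and TAN 6, the highest TAN library, lay just below the lowest Ad-Lib library. The log2 ratio was -0.63 ± 0.13 (edgeR adjusted p = 0.0408), in a gate where 0.406% of all 9851 genes were called. Of the 8 members tested in macrophages 0 were called by edgeR or DESeq2, and 1 had an unadjusted p under 0.05, as did 13.1% of all genes. The call was lost without Ad-Lib 1, 3 or 7 or TAN 2 or 4, with estimates of -0.52 to -0.74 over all libraries left out, and in Leiden clusters (-0.54, adjusted p = 0.0609). In the progenitor gates the ratios of Cfb were -0.12 ± 0.08, -0.22 ± 0.17 and -0.04 ± 0.11, and those of Serping1 0.04 ± 0.07, -0.15 ± 0.09 and 0.05 ± 0.12, with edgeR adjusted p from 0.4998 to 0.936. C2, the partner of C4, had a ratio of 0.53 ± 0.19 in F3/Gdf10 cells (edgeR adjusted p = 0.289).

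**Figure D5:**
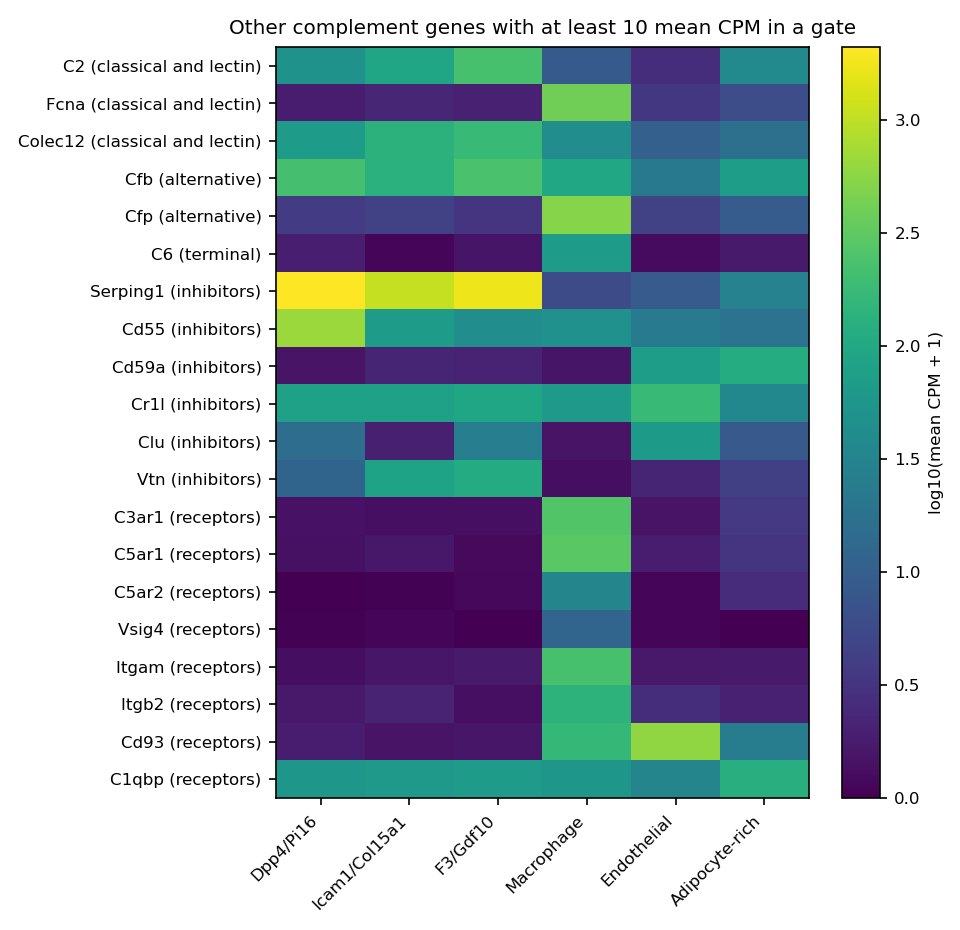
Heat map of the mean level of the 20 other complement genes that reached 10 CPM in a gate, as log10(CPM + 1), with genes grouped by role in rows and the 6 gates in columns. Most receptors and Cfp are brightest in the macrophage column, Serping1 in the 3 progenitor columns and Cd93 in the endothelial column.

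Between progenitor types, of 10 other complement genes tested, 8 were called between Dpp4/Pi16 and Icam1/Col15a1, 5 between Dpp4/Pi16 and F3/Gdf10 and 5 between Icam1/Col15a1 and F3/Gdf10 cells, against 2, 3 and 2 of the 9 members and 27.2%, 26.7% and 3.31% of all genes. Clu, Cd55, Vtn, C2, Serping1, Cfb, Colec12 and C1rl were among them. The difference between these shares was not tested.

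The genes whose levels were most like those of each member, by the correlation of log2(CPM + 1) over the 48 sums of 6 gates and 8 libraries among 10548 genes, followed the same division. The sums share libraries, and gates differ in depth, so the values describe the pattern only. C1qa was most like Lyz2 (Pearson r = 0.988), Mrc1 and H2-Eb1, C1qb most like Pf4 (0.989), and C1qc most like Lyz2 (0.982). C1ra was nearest to Serpinf1 (0.960) and C1s1 to Clec3b (0.987), both with Dcn next. C3 was nearest to Prrx1 (0.969) and Dpt, and C7 to Fbln1 (0.975), Gm17167 and Vit. C4b had the loosest partners, Celf2 (0.948), Tent5a and Tspan3. Cfd was nearest to Car3 (0.995), Retn (0.992) and Cidec (0.988). Lyz2, Mrc1, Dcn, Dpt, Col1a2 and Cidec were markers used to draw the gates, so their likeness to a member restricted to that gate follows from the choice of cells.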

How the data were processed

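The authors deposited raw counts of UMIs per gene and cell barcode, 1 table for each of 8 libraries made with the 10x Genomics 3′ v3 kit, without normalization. Per the labels they came from Cell Ranger 3.0.2 on mm10 (GRCm38), while the file headers name version 6.0.1, and the study's methods describe reads in exons. The annotation release used for counting is not given in the sources used here. Of the 32285 gene identifiers, 32158 matched GENCODE M21, from which coordinates were taken.

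Cells with 700 to 30000 UMIs, 200 to 8000 genes and at most 10% mitochondrial UMIs were kept, the limits of the study's methods. A gate needed at least 4 markers of its lineage (3 for adipocytes). At most 2 markers of each other gated lineage, B and T cells included, were allowed. The same limit held for pericyte and smooth muscle, Schwann and dendritic cell markers. Other lists, such as monocyte, neutrophil, mast cell and erythroid markers, had no limit, so that some mixed droplets can remain. No doublet caller was run. Progenitors were divided by 3 or more of 6 subset markers (5 for F3/Gdf10 cells, since Aoc3 was dropped), and 2855 of 9661 entered no subset. At most 2 of the other subsets' markers were allowed (1 F3/Gdf10 marker in the Icam1/Col15a1 gate). The F3/Gdf10 gate set no limit on Icam1/Col15a1 markers. Marker thresholds were set after marker levels and gate sizes were seen. The members and lists were chosen with earlier results of these data known.

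Counts were summed per library and gate, scaled to CPM, and tested with edgeR 4.0.16 (quasi-likelihood, TMM, filterByExpr, R 4.3.3), with Benjamini-Hochberg adjustment over all genes tested and a call at an adjusted p under 0.05 and at least 1.5-fold. The study tested single cells by a rank test. Progenitor gates were compared with library as a block, and differences in the TAN change with limma 3.58.1 on log2(CPM + 1). Cfd in lymphocytes was compared by an exact permutation test. Alternatives were DESeq2 1.42.0, its size factors, no filter, no minimum fold, stricter gates, Leiden clusters (Python 3.11.15, scanpy 1.11.5, without complement genes among the variable genes), a mitochondrial limit of 20%, cells of at least 2000 UMIs, a pseudocount of 5 and each library left out. A term for libraries numbered up to 4 or above was added after the data were seen. So was a gate free of marker UMIs of the other gated lineages, in which other lists, such as pericyte and erythroid markers, were still allowed. The edgeR test of TAN against Ad-Lib was tried on counts simulated for the Icam1/Col15a1 gate.

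Named were all 9 members, of the other 43 genes those called and the 3 highest in each gate, and the 3 genes most like each member. C6, C8a, C8b, Hc, Cd55 in macrophages, Car3 and the markers named lie outside this rule and were chosen after their values were seen. Another gene of the pathway is not reported here.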

Additional observations from a re-analysis of the deposited data

Results flagged for a closer look

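Of 110 groups of 4 libraries with at least 40 UMIs, 12 had 1 library farther from the other 3 than Dixon's 95% limit allows, and chance alone gives about 1 in 20. In macrophages, C3 was at 137 CPM in TAN 2 against 17.2 to 30.9 CPM in the other TAN libraries, and C1qc was at 2385 CPM in Ad-Lib 7 against 2000 to 2026 CPM. In Dpp4/Pi16 cells, C7 was at 130 CPM in Ad-Lib 5 against 219 to 235 CPM, C1ra at 570.3 CPM in TAN 6 against 499 to 509 CPM, and Cfb at 241 CPM in Ad-Lib 7 against 220.0 to 222 CPM. In F3/Gdf10 cells, C4b was at 387 CPM in Ad-Lib 5 against 529 to 552 CPM, and Cfd at 5.34 CPM in Ad-Lib 7 against 12.5 to 13.4 CPM. In Icam1/Col15a1 cells, C1s1 was at 961 CPM in TAN 8 against 804 to 828 CPM, and Cfb at 203 CPM in TAN 6 against 92.8 to 103 CPM. Endothelial C3 was at 10.8 CPM in TAN 6 against 14.1 to 14.4 CPM, and endothelial Cfb at 15.7 CPM in Ad-Lib 3 against 23.0 to 23.8 CPM. In adipocyte-rich droplets, C4b was at 84.0 CPM in Ad-Lib 3 against 214 to 238 CPM. The flags fell on Ad-Lib 3, 5 and 7 and TAN 2, 6 and 8, and the causes were not tested.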

How the results depend on the processing

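No paired analysis was possible because the labels give the groups no shared replicate numbers. Each of the 6 gates had between 47 (adipocyte-rich) and 1220 cells a library, B cells 14 to 629 and T cells 81 to 1328, and members under about 10 CPM rest on few UMIs. The adipocyte-rich gate could not be fitted with cells of at least 2000 UMIs. Members called changed as follows from 0 in Dpp4/Pi16, 1 in Icam1/Col15a1, 1 in F3/Gdf10, 0 in macrophage, 1 in endothelial and 0 in adipocyte-rich sums. Without a filter on low counts the number was 1 in Dpp4/Pi16 (C7), 2 in F3/Gdf10 (Cfd, C4b) and 1 in macrophage sums (C3), and in endothelial sums, as in cells of at least 2000 UMIs and without Ad-Lib 3, the 1 member called was C1qb in place of C1s1. Without the filter 0.977, 1.31, 1.06 and 1.88% of all genes were called in these 4 gates. In DESeq2 it was 0 in Icam1/Col15a1 (1.97% of all genes) and 0 in endothelial sums (1.96%). In Leiden clusters it was 3 in Icam1/Col15a1 (C1qa, C7, C4b), 1 in macrophage (C7), 3 in endothelial (C1s1, C4b, C3) and 1 in adipocyte-rich sums (C4b), where 1.79, 0.317, 2.26 and 1.06% of all genes were called. With 1 more marker it was 0 in F3/Gdf10, 2 in endothelial (C1qb, C1s1) and 1 in adipocyte-rich sums (C4b), where 0.25, 2.16 and 10.6% of all genes were called, and at a mitochondrial limit of 20% it was 0 in endothelial (2.09% of all genes) and 1 in adipocyte-rich sums (C4b, 7.81%). Without marker UMIs of another gated lineage it was 0 in Icam1/Col15a1, 0 in F3/Gdf10 and 0 in endothelial sums. There far fewer genes and cells were tested, and 0.354, 0.194 and 2.10% of these genes were called. With a term for libraries numbered up to 4 or above it was 2 in F3/Gdf10 (Cfd, C4b) and 2 in endothelial sums (C1qb, C1s1), with 0.870 and 2.50% of all genes. Leaving out 1 library gave 0 to 1 in Dpp4/Pi16, 1 to 2 in Icam1/Col15a1, 0 to 1 in F3/Gdf10, 0 to 0 in macrophage, 0 to 2 in endothelial and 0 to 1 in adipocyte-rich sums. Between Dpp4/Pi16 and Icam1/Col15a1 cells 2 members became 5 with no minimum fold (51.8% of all genes), 1 with 1 more marker (27.3%) and 1 to 3 with a library left out (26.7 to 27.5%), and between Icam1/Col15a1 and F3/Gdf10 cells 2 became 4 with no minimum fold (7.47%) and 4 in Leiden clusters (12.8%). Between Dpp4/Pi16 and F3/Gdf10 cells 3 members became 4 with no minimum fold (50.4%) and 2 in Leiden clusters (20.1%). Gates and clusters of one name shared 43.8 to 98.5% of the gate's cells.

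Some estimates changed sign. Without marker UMIs of another gated lineage C1ra was at -0.036 and C4b at -0.15 in Icam1/Col15a1 cells. In Leiden clusters Cfd was at -0.33 in F3/Gdf10 cells, and C1s1 was at 0.045 for Dpp4/Pi16 over Icam1/Col15a1 and -0.13 for Icam1/Col15a1 over F3/Gdf10 cells. With 1 more marker C1ra was at -0.13 for Dpp4/Pi16 over F3/Gdf10 cells and C1s1 at -0.0064 for Icam1/Col15a1 over F3/Gdf10 cells. With a library left out, the macrophage estimates ran from -0.10 to 0.0014 for C1qa, -0.14 to 0.026 for C1qb and -0.28 to 1.22 for C3, and the C7 difference of Dpp4/Pi16 minus Icam1/Col15a1 cells from -0.11 to 0.55. The TAN minus Ad-Lib difference of Cfd in T cells, -1.83 CPM, ran from -7.26 to 5.03 CPM with a library left out. The causes were not tested. Of the other values for single genes, 700 kept direction and side of the threshold, 29 came to pass it and 25 no longer did.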
